A study of Mus musculus with 20 samples.

Results

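The circadian clock genes are the rows of the deposited gene table whose symbols are Arntl, Npas2, Per1, Per2, Per3, Cry1, Cry2, Nr1d1, Nr1d2 and Dbp, 10 of the 24411 genes listed, chosen by name. All 10 passed the filter on low values. The question addressed was whether the groups of mice differed in the state of the clock at the time the tissue was taken. The tissue was the retinal pigment epithelium with choroid (RPE-choroid). By the study's account it was dissected from both eyecups of 1 mouse per library. Bulk RNA-seq was performed on 20 libraries in 4 groups of 5. VAS WT were C57BL/6J mice fed a vitamin A sufficient (VAS) diet with 4 IU of retinol per g for 12 weeks from weaning, and VAD WT were the same strain fed a deficient (VAD) diet with 0 IU/g for 12 weeks. VAS Stra6-/- and VAD Stra6-/- were mice on a C57BL/6J background that lack both copies of Stra6, kept on the same 2 diets. Stra6 encodes the receptor for the retinol-binding protein RBP4. Wild type animals came from a supplier and Stra6-/- animals were bred in house, so origin and genotype cannot be told apart. All mice lived under a regular light/dark cycle and were anaesthetized and perfused before the eyecups were treated with dispase. The hour of tissue collection was not given in the sources used here, nor whether it was the same for all libraries. A difference in collection hour or day therefore cannot be told apart from genotype or diet, or from the spread within a group. A single level per mouse also cannot separate a shifted clock from a clock of changed amplitude or from an altered mixture of cells. In bulk tissue, fewer cells of a type and less RNA per cell cannot be told apart.

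The mammalian clock is a loop of transcription in which BMAL1, the product of Arntl, pairs with CLOCK or its paralog NPAS2 and binds E-box sequences to switch on the Per and Cry genes, whose proteins return to the nucleus and silence that pair. A second loop runs through the nuclear receptors REV-ERBα and REV-ERBβ, the products of Nr1d1 and Nr1d2, which repress Arntl and Npas2 through ROR elements, while DBP, an output activator, binds D-box sequences. In mouse tissues outside the brain's pacemaker, Arntl and Npas2 therefore peak at the opposite side of the day from Dbp, Nr1d1 and the Per genes, and in the RPE and retina the clock is known for timing the daily shedding and uptake of photoreceptor outer segments.

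Promoter windows of 300 bases, from 250 bases before to 50 bases after an annotated start, were available from RefSeq (GRCm38.p6) for 9 of the 10 genes, with 11 windows in all. Shown is a window each of the activator Arntl, of Per1 and Cry1, and of Per3. These hold letters that match the elements through which the loops are known to act, and these genes moved in different directions between groups. A match of letters alone does not show a working site. Capitals mark matches on either strand to the ROR element TNGGTCA in Arntl, to the E-box CACGTG in Per1 and Cry1, and to the D-box TTANGTAA and the ROR element in Per3.
Arntl, chr7:113207215-113207514, plus strand: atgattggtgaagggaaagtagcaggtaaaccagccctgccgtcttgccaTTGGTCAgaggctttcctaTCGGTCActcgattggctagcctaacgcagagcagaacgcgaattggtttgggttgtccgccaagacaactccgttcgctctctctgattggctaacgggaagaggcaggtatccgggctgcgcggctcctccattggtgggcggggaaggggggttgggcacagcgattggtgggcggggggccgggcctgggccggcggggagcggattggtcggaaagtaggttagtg
Per1, chr11:69098699-69098998, plus strand: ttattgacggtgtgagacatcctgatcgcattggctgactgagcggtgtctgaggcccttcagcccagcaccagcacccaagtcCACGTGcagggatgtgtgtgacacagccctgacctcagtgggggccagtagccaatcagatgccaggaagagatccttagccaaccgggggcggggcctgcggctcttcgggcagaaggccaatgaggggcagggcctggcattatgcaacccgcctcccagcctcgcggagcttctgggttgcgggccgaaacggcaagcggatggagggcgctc
Cry1, chr10:85185005-85185304, minus strand: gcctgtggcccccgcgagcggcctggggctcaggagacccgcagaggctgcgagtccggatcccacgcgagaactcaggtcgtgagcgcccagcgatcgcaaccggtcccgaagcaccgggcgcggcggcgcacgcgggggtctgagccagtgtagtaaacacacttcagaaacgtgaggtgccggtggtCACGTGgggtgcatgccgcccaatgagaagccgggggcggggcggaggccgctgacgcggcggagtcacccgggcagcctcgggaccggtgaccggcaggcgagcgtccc
Per3, chr4:151044616-151044915, minus strand: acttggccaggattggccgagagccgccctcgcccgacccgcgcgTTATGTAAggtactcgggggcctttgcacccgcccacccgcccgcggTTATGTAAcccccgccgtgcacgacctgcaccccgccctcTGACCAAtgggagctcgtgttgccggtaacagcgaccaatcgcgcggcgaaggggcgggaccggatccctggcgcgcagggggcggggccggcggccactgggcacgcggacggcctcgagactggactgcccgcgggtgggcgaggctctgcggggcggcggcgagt
In the Arntl window shown, the ROR element matches began 200 and 181 bases before the start. A second, overlapping Arntl window held the same matches and a further match, TAGGTCA, that began 31 bases downstream of its own start. The Per1 and Cry1 E-boxes began 166 and 60 bases before their starts, and the Per3 D-boxes 205 and 158 bases before its start. A second Per1 window, not shown, held none of the 3 motifs. No motif overlapped another. Of all 32851 windows of this length, 7.15% held the E-box, 2.32% the D-box and 11.0% the ROR element. A ROR element was also matched in Cry2, 133 bases before the start, and none of the 3 motifs was matched in the windows of Npas2, Nr1d1, Nr1d2 and Dbp, which says only that these letters are not in those windows.

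The libraries held 13331903 to 21878614 reads (median 17785927), and values are normalized read counts, that is, reads per gene divided by a size factor for each library. Stra6 was at 2414 to 2742 in VAS WT, 669 to 1529 in VAD WT, 564 to 694 in VAS Stra6-/- and 1973 to 2393 in VAD Stra6-/-. Per 1000 of the summed level of 10 RPE markers, genes of the cells known to express it, Stra6 was at 21.3 to 25.2 in VAS WT, 21.2 to 28.7 in VAD WT, 4.99 to 6.01 in VAS Stra6-/- and 4.09 to 5.08 in VAD Stra6-/-. On that scale both Stra6-/- groups lay below both WT groups without overlap. The markers did not move alike, with log2 fold changes in VAD Stra6-/- against VAS Stra6-/- of 2.93 for Lrat and -0.53 for Best1. The paper reports several of these markers as raised in VAD Stra6-/-. The scale therefore cannot show whether Stra6 itself was reduced there. Xist, transcribed from the inactive X chromosome, was at 7.69 to 38.4 in VAS WT and 15320 to 18052 in VAS Stra6-/-, and the Y-linked gene Ddx3y at 981 to 1193 and 0 to 1.02, so sex-linked transcripts separated those groups in the same way as genotype and the contributions cannot be told apart. The VAD Stra6-/- libraries held both, with Xist at 3570 to 4280 and Ddx3y at 741 to 970, so these transcripts also separated them from VAS Stra6-/-. In the comparisons and the interaction that use them, sex-linked differences cannot be told apart from diet and genotype. High levels of both in each library are at odds with 1 mouse per library. Whether libraries were mixed or exchanged was not tested. Every SE and p given here takes each library as 1 mouse, and all groups share 1 estimate of the spread. Where a library held RNA of more than 1 mouse, these values do not measure the spread between mice. Directions that rest on these libraries are given as those of the libraries labelled VAD Stra6-/-. VAD WT replicates 2 and 4 stood apart from replicates 1, 3 and 5, with Xist at 10912 and 11767 against 174 to 234 and Ddx3y at 75.2 and 80.5 against 1041 to 1133, and the counts of called genes and the clock gene tests that use VAD WT are given with and without them. Ddx3y in VAD WT replicates 2 and 4 was above the 0 to 1.02 of VAS Stra6-/-, so these libraries also held both transcripts. The summed level of the RPE markers was 105086 to 121071 in VAS WT, 29437 to 55194 in VAD WT, 110263 to 115570 in VAS Stra6-/- and 471403 to 512380 in VAD Stra6-/-. That of 8 markers of surface epithelium such as Krt5 and Krt12 was 544093 to 643854, 334097 to 901126, 759526 to 788351 and 22236 to 28957 in the same order. No marker of either list was at 0 throughout a group.

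**Figure D1:**
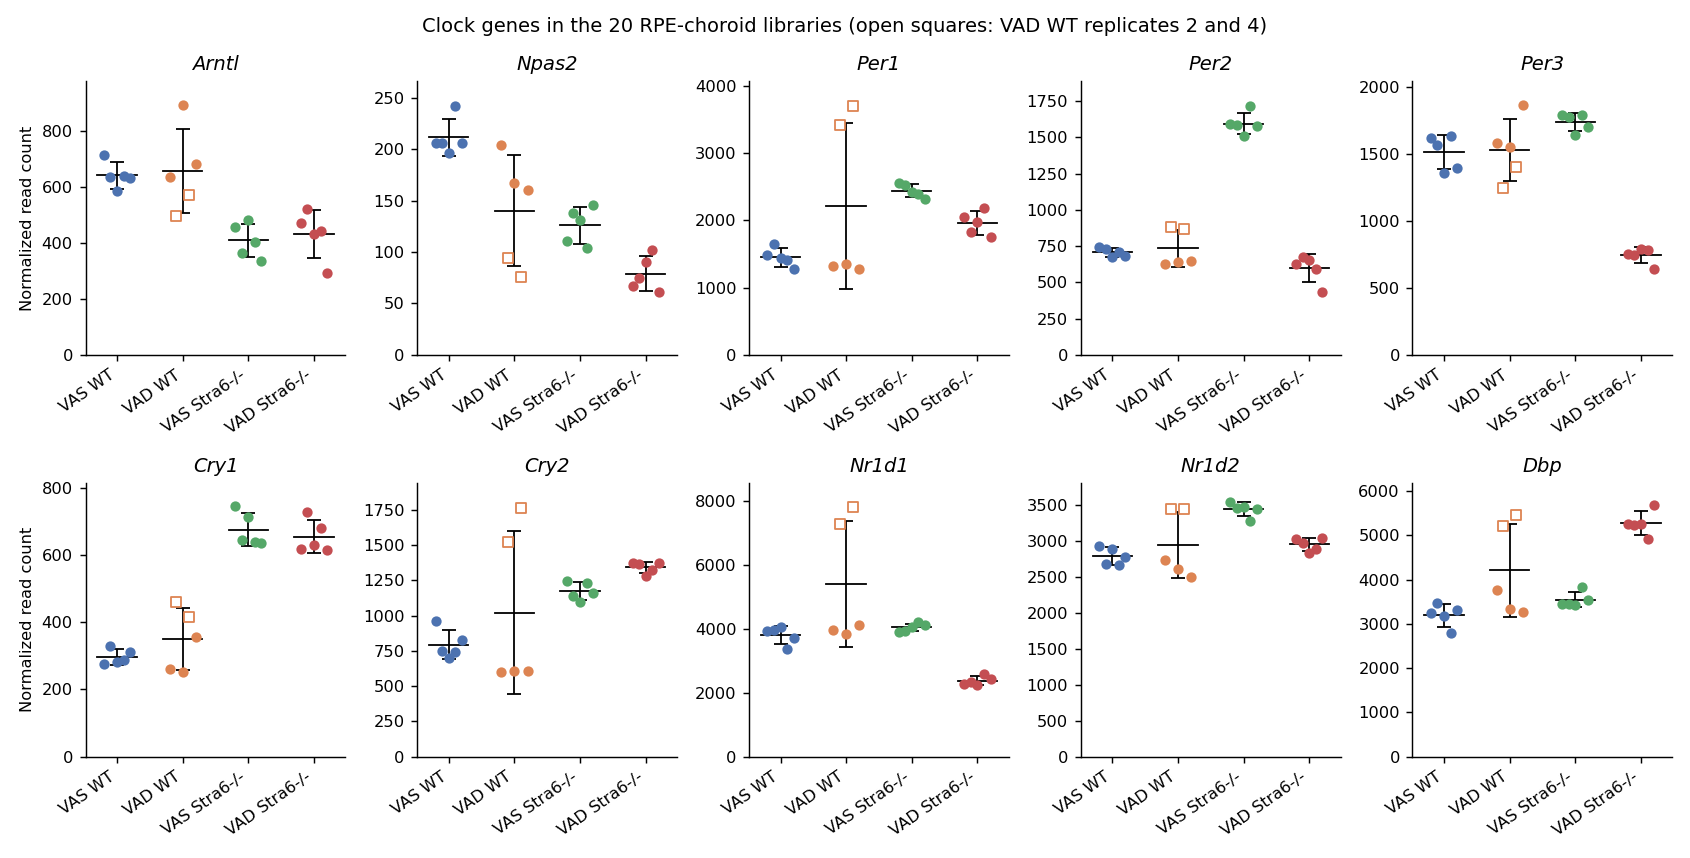
Normalized read counts of the 10 clock genes (vertical axes from 0) in each library of the 4 groups, with the mean and SD of 5 libraries as black lines. Open squares are VAD WT replicates 2 and 4, which sit above replicates 1, 3 and 5 for 7 genes and below them for Arntl, Npas2 and Per3. Per2 is at 1509 to 1718 in VAS Stra6-/- and at 882 or less elsewhere.

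All 10 clock genes were detected in every library. Per kilobase of exonic length, Nr1d1 and Dbp stood highest, with group means of 772 to 1753 for Nr1d1 and 1068 to 1761 for Dbp. Npas2 was the lowest on that scale at 16.5 to 44.1, and Arntl was at 54.4 to 87.3. Genes on this scale can be compared within a group.

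On the sufficient diet, Stra6-/- differed from WT in 6 of the 10 clock genes. Both activators were lower, and Per1, Per2, Cry1 and Nr1d2 were higher, with Per2 and Cry1 more than doubled. Across all 18807 genes tested, 15.9% were called higher and 10.8% lower (limma, adjusted p under 0.05), against 4 higher and 2 lower among the 10. The median log2 fold change of the 10 was 0.25, and that of all genes was 0.017.

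Arntl (chr7:113207465-113314126, GRCm38), which encodes the shared partner in both activator pairs, was at 717, 636, 586, 639 and 632 in the VAS WT libraries. In VAS Stra6-/- it was at 457, 365, 482, 405 and 337. Every knockout library lay below every wild type library, with a log2 fold change of -0.66 ± 0.15 (SE, n = 5 per group; limma adjusted p = 0.00251). Npas2 (chr1:39193731-39363236), the paralog of Clock, was at 206, 206, 196, 242 and 206 in VAS WT and at 111, 138, 131, 104 and 145 in VAS Stra6-/-. Here too the groups did not overlap, and the log2 fold change was -0.75 ± 0.23 (limma adjusted p = 0.0187).

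Among the repressors, Per2 (chr1:91415982-91459324), whose protein carries the CRY proteins into the nucleus, rose from 743, 731, 674, 707 and 681 to 1590, 1586, 1509, 1718 and 1578. The means differed 2.26-fold, with a log2 fold change of 1.17 ± 0.11 (limma adjusted p = 1.71e-07), a difference many times the spread within either group. Cry1 (chr10:85131700-85185064), a direct repressor of the activator pair, rose from 275, 330, 280, 288 and 312 to 744, 644, 714, 638 and 636. Its means differed 2.27-fold (log2 fold change 1.18 ± 0.13, limma adjusted p = 1.15e-06), and the groups did not overlap. Per1 (chr11:69095217-69109960), the Per gene known to respond fastest to outside signals, was at 1275 to 1650 in VAS WT and 2322 to 2561 in VAS Stra6-/-, again without overlap. Its log2 fold change was 0.76 ± 0.23 (limma adjusted p = 0.0178). Per3 (chr4:151003652-151044665), a less essential Per paralog, was at 1359 to 1634 and 1645 to 1790, ranges that did not overlap, but it did not pass the test (log2 fold change 0.20 ± 0.09, limma adjusted p = 0.106). Cry2 (chr2:92403646-92434043), the second cryptochrome, was at 696 to 963 and 1098 to 1248, also without overlap, and did not pass either (log2 fold change 0.57 ± 0.23, limma adjusted p = 0.0742).

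Of the REV-ERB genes, Nr1d2 (chr14:18204054-18239127) rose from 2937, 2688, 2897, 2674 and 2772 to 3544, 3463, 3474, 3285 and 3453. All knockout libraries were above all wild type libraries, although the difference in means was only 1.23-fold (log2 fold change 0.30 ± 0.079, limma adjusted p = 0.00646). Nr1d1 (chr11:98767932-98775333) was at 3366 to 4040 in VAS WT and 3911 to 4195 in VAS Stra6-/-, overlapping ranges (log2 fold change 0.09 ± 0.15, limma adjusted p = 0.717). Dbp (chr7:45705088-45710203) was at 2782 to 3474 and 3431 to 3836 (log2 fold change 0.15 ± 0.12, limma adjusted p = 0.384). Thus 2 of the genes that usually peak opposite to Arntl, Nr1d1 and Dbp, did not pass while Arntl fell.

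The SE in this comparison includes the spread of VAD WT, since all groups share 1 estimate. Without VAD WT replicates 2 and 4, 9 of the 10 genes were called, 7 higher and 2 lower, against 40.0% of all genes in either direction. The genes added were Cry2 (limma adjusted p = 8.86e-07), Per3 (0.0213) and Dbp (0.039), with the same fold changes, and leaving out VAD WT replicate 2 alone or replicate 4 alone already brought Cry2 past the threshold (0.0383 and 0.0195). Other gene lists moved between the same groups. All 8 heat shock genes were higher (median log2 fold change 1.43), 10 of 13 immediate early genes were higher and 0 lower (median 1.68), and 4 of 6 glucocorticoid target genes were higher and 0 lower (median 1.46). Their summed levels in VAS WT and VAS Stra6-/- were 50470 to 53889 and 127371 to 133677 for heat shock genes, 14226 to 15350 and 35272 to 36993 for immediate early genes, and 10413 to 10980 and 17673 to 19414 for glucocorticoid targets. The 8 skeletal muscle markers were all higher as well, with sums of 9618 to 11941 and 25149 to 29055, and all 8 cone markers were lower, with sums of 2729 to 3522 and 769 to 846. The part of these lists in the clock gene differences was not tested.

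**Figure D2:**
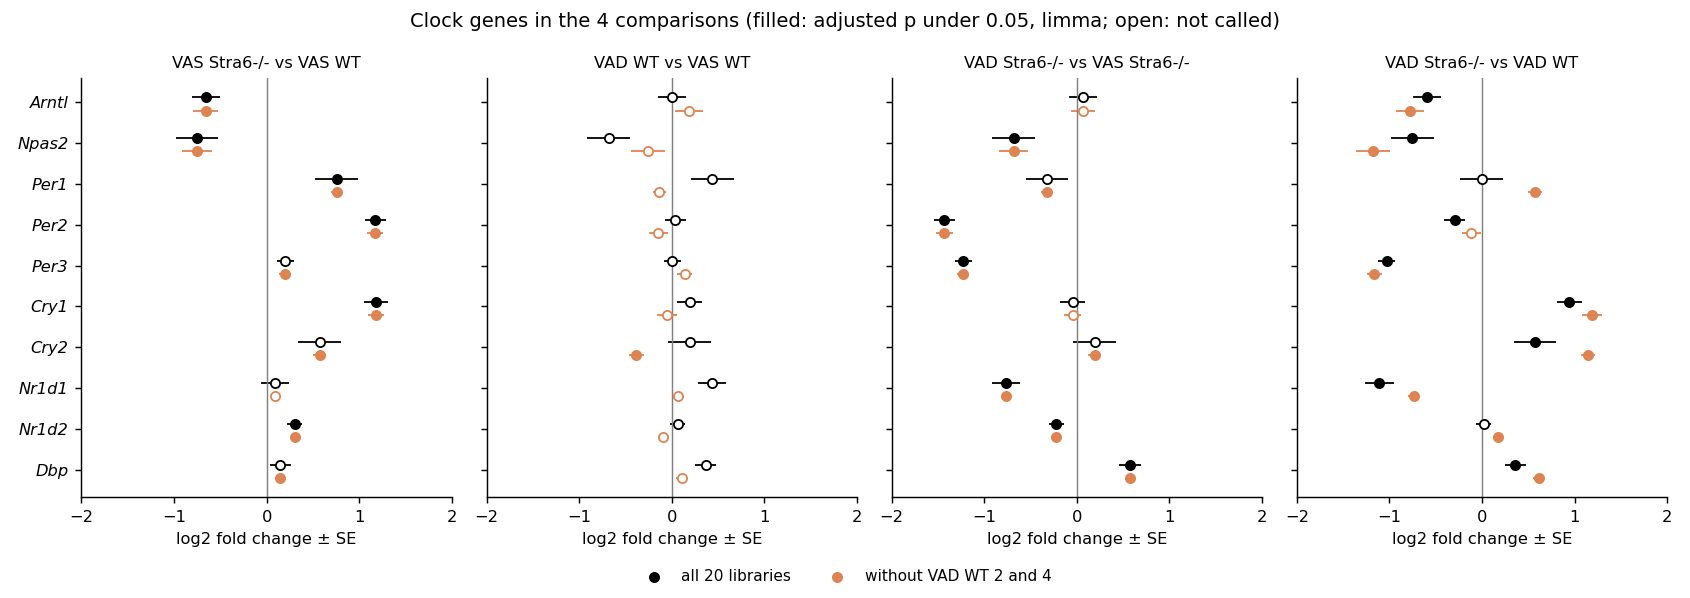
Log2 fold changes (horizontal axes, ± SE) of the 10 clock genes in the 4 comparisons, in black from all 20 libraries and in orange without VAD WT replicates 2 and 4. Filled points passed an adjusted p of 0.05 (limma). In the VAS Stra6-/- against VAS WT panel Arntl and Npas2 lie left of 0 and the 8 other genes right of it, and in the VAD WT against VAS WT panel no black point is filled.

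In wild type mice, the deficient diet gave no clock gene that passed the test. The count was 0 of 10, where 3.29% of all genes were called higher and 5.50% lower. At an unadjusted p under 0.05 there were 3, namely Npas2 (log2 fold change -0.68 ± 0.23, limma adjusted p = 0.0723), Nr1d1 (0.43 ± 0.15, 0.0883) and Dbp (0.37 ± 0.12, 0.0547). On recovered reads edgeR called 1 gene, Dbp, and DESeq2 called 2, Dbp and Nr1d1. These values depended on single libraries. Npas2 passed without VAD WT replicate 1 (limma adjusted p = 0.0234), Nr1d1 without VAD WT replicate 1 or 3 (0.04 and 0.0336), and Dbp without VAD WT replicate 3 or 5 (0.0222 and 0.0174).

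Within VAD WT, replicates 2 and 4 lay outside the range of replicates 1, 3 and 5 for all 10 clock genes, above it for 7 and below it for 3. Per1 was at 1319, 3412, 1354, 3704 and 1276 in replicates 1 to 5. Cry2 was at 604, 1523, 606, 1767 and 610. The mean of replicates 2 and 4 was thus 2.70 times that of the others for Per1 and 2.71 times for Cry2. Nr1d1 was at 3946, 7279, 3831, 7802 and 4111, a ratio of 1.90. Dbp was at 3768, 5208, 3333, 5464 and 3260, and Nr1d2 at 2735, 3445, 2611, 3447 and 2503. Per2 was at 625, 882, 644, 870 and 651, and Cry1 at 262, 460, 253, 414 and 355. The 3 genes that were lower in replicates 2 and 4 included both activators. Arntl was at 635, 499, 894, 572 and 684, and Npas2 at 204, 93.7, 167, 75.3 and 160. Per3, the exception among the Per genes, was at 1581, 1246, 1556, 1405 and 1869. This split was found in the data and no test was made of it. How many of all genes split in this way was not counted, so the 10 of 10 does not set the clock genes apart.

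The summed levels of the immediate early, glucocorticoid and heat shock lists and of every cell type marker list split the same libraries without overlap. In VAD WT replicates 2 and 4, immediate early genes summed to 24247 and 25023 against 9845 to 10063 in the other 3, glucocorticoid targets to 19369 and 19701 against 8306 to 8548, rod markers to 283846 and 286257 against 107165 to 110904, and markers of sclera and tendon to 154272 and 158522 against 44912 to 47205. RPE markers were higher too, at 53272 and 55194 against 29437 to 31589. Surface epithelium markers were lower, at 334097 and 335733 against 874868 to 901126. Heat shock genes, at 56973 and 57176 against 62074 to 62821, and macrophage markers, at 2115 and 2208 against 2417 to 2870, were lower as well. The remaining lists were higher. The part of these differences in the clock gene values was not tested.

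Without replicates 2 and 4, VAD WT differed from VAS WT in 1 of the 10 clock genes, against 37.9% of all genes. Cry2 was at 604, 606 and 610 in the remaining VAD WT libraries and 696 to 963 in VAS WT, and fell by 0.38 on the log2 scale (SE 0.078, limma adjusted p = 0.000614). The other 9 genes had log2 fold changes of -0.26 for Npas2 to 0.19 for Arntl.

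**Figure D3:**
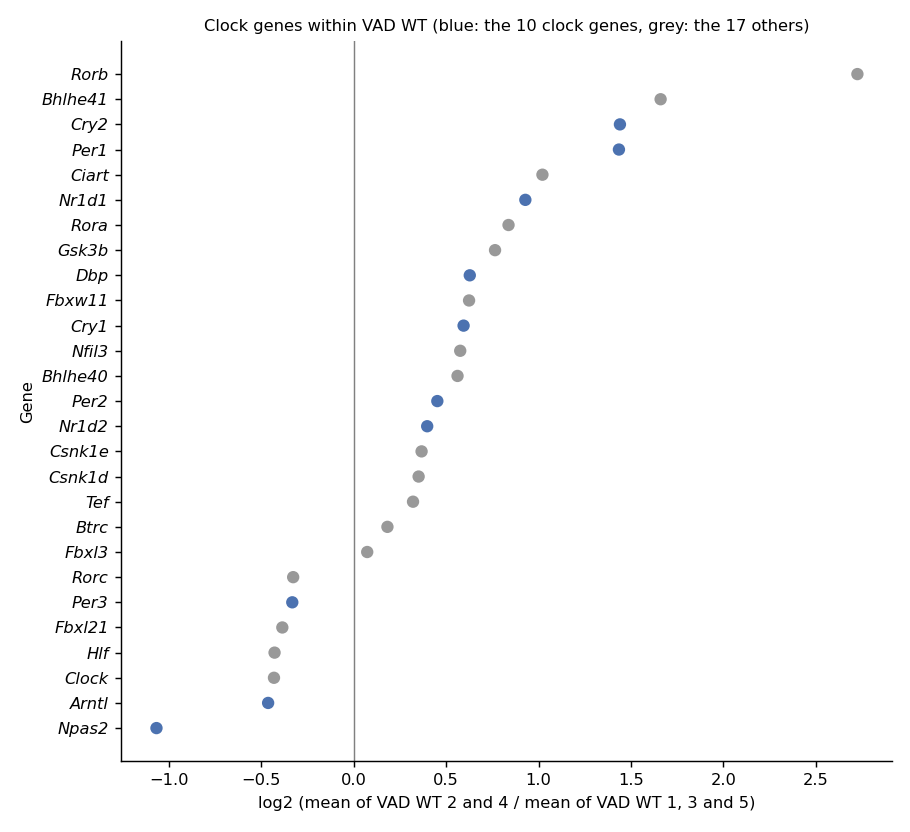
Log2 ratio of the mean of VAD WT replicates 2 and 4 to the mean of replicates 1, 3 and 5 (horizontal axis) for the 10 clock genes in blue and 17 other genes of the clock in grey, ordered by ratio. Npas2 and Arntl have the lowest ratios and Rorb the highest, and 20 of the 27 genes lie right of 0.

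Between the Stra6-/- groups, the libraries labelled VAD differed from VAS in 6 of the 10 clock genes. Xist and Ddx3y separated the same groups, as given above, so diet and sex-linked differences cannot be told apart here. Per2, Per3, Nr1d1, Nr1d2 and Npas2 were lower and Dbp was higher. Of all genes, 24.4% were called higher and 28.8% lower, against 1 and 5 of the 10. The median log2 fold change was -0.27 over the 10 and -0.066 over all genes.

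Per3 was at 1789, 1775, 1645, 1790 and 1701 in VAS Stra6-/- and 752, 745, 794, 785 and 645 in the libraries labelled VAD Stra6-/-. The groups were far apart, with a log2 fold change of -1.23 ± 0.09 (limma adjusted p = 1.7e-10). Per2 was at 628, 675, 658, 595 and 435 in VAD Stra6-/-, which compares with 1509 to 1718 in VAS Stra6-/- (log2 fold change -1.43 ± 0.11, limma adjusted p = 5.97e-10). Per2 in these libraries did not exceed 675, while it was at 674 to 743 in VAS WT. Per1 did not pass the test, at 2052, 1827, 1980, 2190 and 1755 against 2322 to 2561 (log2 fold change -0.32 ± 0.23, limma adjusted p = 0.257), although the ranges did not overlap. Cry1, at 616 to 726 against 636 to 744, and Cry2, at 1281 to 1373 against 1098 to 1248, did not pass the test.

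Nr1d1 was at 2282, 2340, 2242, 2595 and 2426 in VAD Stra6-/-, the lowest of any group, and was at 3911 to 4195 in VAS Stra6-/-. Its log2 fold change of -0.77 ± 0.15 passed the test (limma adjusted p = 0.000224). Nr1d2 fell less, to 3032, 2969, 2839, 2884 and 3048 (log2 fold change -0.22 ± 0.079, limma adjusted p = 0.0221). Dbp moved in the other direction from the REV-ERB genes. It was at 5265, 5225, 5251, 4921 and 5692, above all 5 VAS Stra6-/- libraries (log2 fold change 0.57 ± 0.12, limma adjusted p = 0.000253).

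The activators also parted. Npas2 was at 66.5, 74.9, 90.1, 102 and 60.9 in VAD Stra6-/- (log2 fold change -0.68 ± 0.23, limma adjusted p = 0.0162), whereas Arntl was at 471, 521, 433, 444 and 293, within and around the 337 to 482 of VAS Stra6-/- (log2 fold change 0.07 ± 0.15, limma adjusted p = 0.745). Without VAD WT replicates 2 and 4 in the shared spread, 8 of 10 genes were called between the Stra6-/- groups, against 60.7% of all genes, and the genes added were Per1 (limma adjusted p = 0.000164) and Cry2 (0.0184). The marker sums of these groups differed widely, as given above for RPE and surface epithelium. Sclera and tendon markers summed to 39390 to 40836 in VAS Stra6-/- and 211564 to 223603 in VAD Stra6-/-, heat shock genes to 127371 to 133677 and 80688 to 96998, and immediate early genes to 35272 to 36993 and 14768 to 16984. Their part in the clock gene differences was not tested.

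On the deficient diet, 8 of the 10 clock genes differed between the genotypes as labelled, 3 higher and 5 lower in the libraries labelled VAD Stra6-/-, where 26.2% of all genes were called higher and 29.6% lower. Nr1d1 (log2 fold change -1.11 ± 0.15, limma adjusted p = 2.62e-06) and Per3 (-1.03 ± 0.09, 2.97e-09) were lower without overlap between groups. Cry1 was higher without overlap (0.94 ± 0.13, 3.37e-06). Arntl (-0.60 ± 0.15, 0.00195) and Npas2 (-0.75 ± 0.23, 0.00822) were again lower in the libraries labelled Stra6-/-. Both had ranges that overlapped, through VAD WT replicate 2 for Arntl and through VAD WT replicates 2 and 4 for Npas2.

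The other calls of this comparison, and that of Npas2, depended on the tool, on the groups in the fit or on single libraries. With only the compared groups in the fit, the calls of Npas2 (limma adjusted p = 0.0637), Dbp (0.0823), Per2 (0.142) and Cry2 (0.185) were lost. Dbp was higher (log2 fold change 0.36 ± 0.12, limma adjusted p = 0.012), but not with edgeR (0.0579). Per2 was lower (-0.30 ± 0.11, 0.0315), but not without VAD WT replicate 2 (0.0932), VAD WT replicate 4 (0.0889) or VAD Stra6-/- replicate 5 (0.117). Cry2 was higher (0.57 ± 0.23, 0.0408), but not when VAS WT replicate 2, 4 or 5, VAD WT replicate 1, 3 or 5, VAS Stra6-/- replicate 4 or any VAD Stra6-/- replicate was left out (limma adjusted p between 0.0503 and 0.135). The Cry2 call was also lost with TMM scaling (limma adjusted p = 0.0515) and without the intensity trend (0.0616), and neither edgeR (log2 fold change 0.36, adjusted p = 0.245) nor DESeq2 (0.38, 0.204) made it. Per1 (-0.003 ± 0.23) and Nr1d2 (0.016 ± 0.079) did not pass. Without VAD WT replicates 2 and 4, 9 of 10 genes were called, 5 higher and 4 lower, against 63.1% of all genes. Per1 was then higher (0.57 ± 0.073, limma adjusted p = 6.84e-07), as were Cry2 (1.15 ± 0.078, 3.93e-11) and Nr1d2 (0.18 ± 0.044, 0.00165), and Per2 was no longer called (-0.12 ± 0.10, 0.337).

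The response to diet differed between the genotypes, as labelled, for 4 of the 10 clock genes by the interaction term, where 44.2% of all genes were called. Per2 (log2 difference -1.47 ± 0.16, limma adjusted p = 1.53e-07), Per3 (-1.23 ± 0.13, 6.67e-08), Nr1d1 (-1.20 ± 0.22, 0.000108) and Nr1d2 (-0.29 ± 0.11, 0.042) had the more negative diet effect in Stra6-/-. Without VAD WT replicates 2 and 4 there were 5, against 54.7% of all genes. Per2 (-1.29 ± 0.13), Per3 (-1.37 ± 0.10) and Nr1d1 (-0.83 ± 0.075) stayed among them, Cry2 (0.57 ± 0.10) and Dbp (0.46 ± 0.086) were added with the opposite sign, and Nr1d2 was not called (-0.13 ± 0.059, limma adjusted p = 0.075). The Nr1d2 interaction was near the threshold in any case. It was lost on leaving out VAS WT replicate 2, 4 or 5, VAD WT replicate 2 or 4, VAS Stra6-/- replicate 1, 2, 3 or 5, or VAD Stra6-/- replicate 2, 3 or 4 (limma adjusted p between 0.0553 and 0.0731). Per1 passed without VAD WT replicate 1, 3 or 5 (0.0247 to 0.03), and both edgeR (-0.95, adjusted p = 0.0328) and DESeq2 (-0.94, 0.0183) called it. The 4 comparisons and the interaction share libraries, so their values for a gene are not independent of each other.

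Ratios within a library hardly depend on its size factor and were used to describe the balance of the loop, with no test. The normalized count of Dbp was 3.73 to 19.4 times that of Arntl over the 20 libraries. The log2 ratio of Dbp to Arntl was 2.17, 2.45, 2.43, 2.12 and 2.39 in VAS WT and 2.92, 3.23, 2.83, 3.24 and 3.38 in VAS Stra6-/-, groups that did not overlap. In VAD Stra6-/- it was 3.48, 3.32, 3.60, 3.47 and 4.27. In VAD WT replicates 2 and 4, at 3.38 and 3.25, lay within the range of VAS Stra6-/-, and of replicates 1, 3 and 5, at 2.57, 1.90 and 2.25, the first lay above the range of VAS WT, the second below it and the third within it. Dbp has 2993 exonic bases and Arntl 7523, and these counts are not scaled by length. The sign of the ratio therefore does not tell the phase at which a library was taken.

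The ratios did not order the groups in 1 way. For Nr1d1 to Arntl the log2 ratio (mean ± SD, n = 5) in VAS WT was 2.56 ± 0.16, that in VAS Stra6-/- was 3.31 ± 0.23 and that in VAD Stra6-/- was 2.48 ± 0.34, so the libraries labelled VAD Stra6-/- were with VAS WT here and farthest from it for Dbp to Arntl (3.63 ± 0.37 against 2.31 ± 0.15). That of Per1 to Per2 was 1.03 ± 0.10 in VAS WT, 0.61 ± 0.10 in VAS Stra6-/- and 1.72 ± 0.23 in VAD Stra6-/-, with the knockout groups on either side of the wild type. That of Cry1, a gene known to peak late in the cycle, to Dbp was -3.42 ± 0.11, -2.39 ± 0.15 and -3.01 ± 0.16. In VAD WT the means were 2.99 ± 0.78, 1.43 ± 0.54 and -3.59 ± 0.26 for Nr1d1 to Arntl, Per1 to Per2 and Cry1 to Dbp, and over replicates 1, 3 and 5 they were 2.44 ± 0.30, 1.04 ± 0.06 and -3.59 ± 0.34. The mean log2 level of Dbp, Nr1d1, Nr1d2 and the 3 Per genes minus that of Arntl and Npas2 was 2.39 ± 0.10 in VAS WT, 2.95 ± 0.74 in VAD WT (2.42 ± 0.13 over replicates 1, 3 and 5), 3.54 ± 0.13 in VAS Stra6-/- and 3.28 ± 0.21 in VAD Stra6-/-.

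A list of 17 further genes of the clock was examined beside these 10. Between VAS Stra6-/- and VAS WT, 9 were higher and 1 lower, where 15.9% of all genes were higher and 10.8% lower. The median log2 fold change was 0.35 over the 17 and 0.017 over all genes. The higher genes included Clock, the usual partner of BMAL1 (log2 fold change 0.39 ± 0.092, limma adjusted p = 0.00318), Rora, which activates through ROR elements (0.75 ± 0.15, 0.00058), and the casein kinase gene Csnk1d, whose product marks PER proteins for decay (0.60 ± 0.086, 2.07e-05). Clock was at 1754 to 2058 in VAS WT and 2197 to 2573 in VAS Stra6-/-, so that it rose where its partner Arntl and its paralog Npas2 fell. The gene that fell was Btrc, which encodes a subunit of the ligase that removes PER proteins (-0.49 ± 0.07, 2.13e-05).

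Between VAD WT and VAS WT, 1 of the 17 was higher and 1 lower, shares near the 3.29% and 5.50% of all genes. Hlf, a relative of Dbp in the PAR bZIP family, was at 2511, 2291, 2423, 2536 and 2213 in VAS WT and 4210, 2832, 3852, 2979 and 3667 in VAD WT (log2 fold change 0.54 ± 0.10, limma adjusted p = 0.00121). All VAD WT libraries lay above VAS WT, replicates 2 and 4 the least. Csnk1e, the paralog of Csnk1d, was lower (-0.37 ± 0.09, 0.00993). Without replicates 2 and 4, 8 of the 17 were called, 1 higher and 7 lower, against 37.9% of all genes in either direction.

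In the libraries labelled VAD Stra6-/- against VAS Stra6-/-, 6 of the 17 were higher and 5 lower, where 24.4% of all genes were higher and 28.8% lower, so the count was not far from the general one. Nfil3, which represses through the D-box sites that Dbp activates, was at 255 to 287 in VAS Stra6-/- and 716 to 911 in VAD Stra6-/- (log2 fold change 1.60 ± 0.16, limma adjusted p = 1.44e-08). Hlf was lower (-1.21 ± 0.10, 1.17e-09), at 1288 to 1740 against 3164 to 3702. Dbp and Hlf, which usually share a phase, thus moved in opposite directions, and the third member of their family, Tef, did not pass (0.10 ± 0.071, 0.226). Clock was lower (-1.03 ± 0.092, 3.75e-09), and Bhlhe41, a further E-box repressor, was higher (0.90 ± 0.28, 0.00881). On the deficient diet between genotypes, 9 were higher and 2 lower, against 26.2% and 29.6% of all genes, with Nfil3 (2.10 ± 0.16, 2.09e-10) and Hlf (-1.23 ± 0.10, 9.34e-10) the highest and the lowest. The interaction term passed for 5 with a positive and 2 with a negative sign, 7 of 17 where 44.2% of all genes passed. When VAD WT replicates 2 and 4 were left out, 12 of the 17 were called in VAS Stra6-/- against VAS WT (40.0% of all genes), 13 between the Stra6-/- groups (60.7%), 15 between the genotypes on the deficient diet (13 higher and 2 lower, 63.1%) and 9 by the interaction (7 positive and 2 negative, 54.7%).

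**Figure D4:**
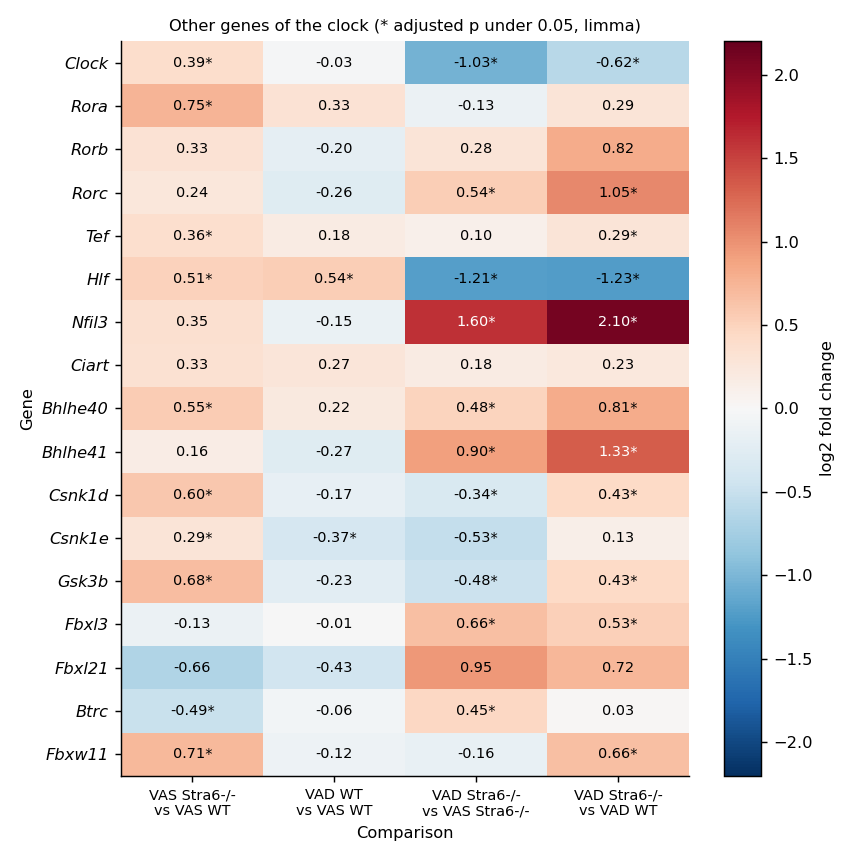
Log2 fold changes of 17 further genes of the clock (rows) in the 4 comparisons (columns), with the value printed in each cell and a star where the adjusted p was under 0.05 (limma). Nfil3 has the highest values, 1.60 and 2.10, and Hlf the lowest, -1.21 and -1.23, in the comparisons of the libraries labelled VAD Stra6-/-.

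Genes known to be driven by the clock were examined as a list of 8. Of these, 4 were higher and 0 lower in VAS Stra6-/- against VAS WT, where 15.9% of all genes were higher and 10.8% lower. They were led by Cdkn1a, a cell cycle inhibitor (log2 fold change 1.28 ± 0.092, limma adjusted p = 2.41e-09), and Por, the electron donor of cytochrome P450 enzymes (0.87 ± 0.057, 6.53e-10). Both were lower in VAD Stra6-/- against VAS Stra6-/- (-1.51 ± 0.092, 8.86e-12, and -1.40 ± 0.057, 1.17e-14), where 2 of the 8 were higher and 2 lower, near the 24.4% and 28.8% of all genes. Between VAD WT and VAS WT 2 were higher and 1 lower, against 3.29% and 5.50% of all genes, and between VAD Stra6-/- and VAD WT 3 were higher and 2 lower, against 26.2% and 29.6%. Leaving out VAD WT replicates 2 and 4, 6 of the 8 were called in VAS Stra6-/- against VAS WT, 6 in VAD WT against VAS WT, 5 between the Stra6-/- groups and 8 between the genotypes on the deficient diet, where 40.0%, 37.9%, 60.7% and 63.1% of all genes were.

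Of 5 genes with a known rhythm in the eye, 1 was higher and 1 lower in VAS Stra6-/- against VAS WT, 0 and 2 in VAD WT against VAS WT, and 2 and 2 in each comparison of the libraries labelled VAD Stra6-/-. The shares of all genes in the same comparisons are those just given, and counts this small were not set apart from them. With VAD WT replicates 2 and 4 left out, the counts called were 3, 1, 5 between the Stra6-/- groups and 3 between the genotypes on the deficient diet. Aanat, the rate-limiting enzyme of melatonin synthesis, was the lower gene in VAS Stra6-/- (-0.79 ± 0.20, limma adjusted p = 0.00487), was lower in VAD WT (-0.96 ± 0.20, 0.00309) and was higher in VAD Stra6-/- against VAS Stra6-/- (1.82 ± 0.20, 8.16e-08). The calls of Aanat stayed without those libraries, with limma adjusted p = 0.00279, 0.00138 and 5.78e-08 in the same order.

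Over the 20 libraries, the genes whose log2 levels were most like those of Dbp, among 12299 with a mean of at least 100, were Mmp2 (Pearson r = 0.96), Gnas, Gas6, Thbs4 and Cilp2. For Arntl they were Trmt12 (r = 0.90), Ap5z1, Klhl17, Kctd18 and Tdp2. None of these 10 genes is among the clock genes examined here. After the group means were subtracted, so that only differences between libraries of 1 group remained, the closest genes were Mex3d (r = 0.96), Krt8, Eef1a2, Nog and Chpf for Dbp and Nup188 (r = 0.83), Tdp2, Rhbdf2, Uba3 and Slc4a11 for Arntl. These are descriptions over libraries that share groups, and VAD WT replicates 2 and 4 weigh on them. Within groups, Dbp correlated with Arntl at r = -0.56 over all libraries and -0.31 over the 15 libraries outside VAD WT. Other genes that usually peak opposite to Arntl did not share 1 sign. Over all libraries, r with Arntl was -0.39 for Per1, 0.10 for Per2, 0.55 for Per3, -0.51 for Nr1d1 and -0.47 for Nr1d2. Over the 15 libraries it was 0.33, 0.73, 0.52, -0.16 and -0.04 in the same order.

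Annotated exons of other genes overlap some of the clock genes on the opposite strand, and no source used here says that counting used strand. Sphk2 shares 539 bases, 18.0% of the exonic length of Dbp, and Thra shares 263 bases, 8.5% of that of Nr1d1. Mean Sphk2 was 1275 in VAS WT, 1310 in VAD WT, 1039 in VAS Stra6-/- and 805 in VAD Stra6-/-. Mean Thra was 984, 1054, 1161 and 1569 in the same order. The part of reads from these genes in the values of Dbp and Nr1d1 was not tested.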

How the data were processed

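RNA-seq of RPE-choroid was performed on 20 libraries, and 24411 genes were listed. The deposited signal values are gene counts that, per the study's methods, the authors obtained with STAR 2.5.3a and RSEM 1.2.30 on GRCm38 and divided by DESeq2 1.32.0 size factors. Every value was a whole multiple of its library's step within 0.01, which gave back the reads of 19 libraries. For VAD Stra6-/- replicate 1 the step was too near 1, so it was left out of count tests. Depth was 13331903 to 21878614 reads.

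The values were tested as log2(value + 1) with limma 3.58.1 in R 4.3.3 over 18807 genes with at least 5 reads in total, with 1 mean per group, a shared spread and Benjamini-Hochberg adjustment. An adjusted p under 0.05 was called. edgeR 4.0.16 and DESeq2 1.42.0 on recovered reads, other pseudocounts (0.5 and 4), filters, scalings and samples were alternatives. The fit was tested on simulated data. Groups came from the labels. The clock genes and the lists were chosen with earlier results of these data known, as was leaving out VAD WT replicates 2 and 4. All 10 clock genes were described, the 17 further clock genes could be named, and of the other lists only the highest and lowest called genes. Motifs were searched in RefSeq windows, and exons come from the GENCODE annotation of GRCm38. By the study's account each library came from 1 mouse.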

Additional observations from a re-analysis of the deposited data

Results flagged for a closer look

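In 40 checks of 1 gene in 1 group of 5 libraries, 2 libraries stood far from the other 4, and chance alone gives about 1 in 20 such groups. Npas2 was at 242 in VAS WT replicate 4 against 196 to 206 in the others, and Dbp was at 3836 in VAS Stra6-/- replicate 4 against 3431 to 3530.

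The diet effect differed between the genotypes, as labelled, by the interaction term for 4 clock genes. These were Per2 (-1.47 on the log2 scale), Per3 (-1.23), Nr1d1 (-1.20) and Nr1d2 (-0.29). By the same term 44.2% of all genes were called, so this count does not set the clock genes apart. The Nr1d2 call was lost in 15 of 30 alternative fits. Per 1000 of the RPE marker sum, Stra6 was at 4.09 to 5.08 in the libraries labelled VAD Stra6-/- and 21.3 to 25.2 in VAS WT. Its normalized counts were 1973 to 2393 and 2414 to 2742, so the difference rests on the marker sum.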

How the results depend on the processing

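Over 1540 refitted log2 fold changes of the 10 genes, 1410 kept direction and side of the threshold, 40 lost and 29 gained a call, and 61 changed sign, of which only 2 with a call, both without VAD WT replicates 2 and 4. Without those libraries the signs turned for Per1 (-0.13), Per2 (-0.14), Cry1 (-0.049), Cry2 (-0.38) and Nr1d2 (-0.094) in VAD WT against VAS WT, for Per1 (0.57) in VAD Stra6-/- against VAD WT, and for the interactions of Arntl (-0.12) and Cry1 (0.004). The interaction of Npas2 was 0.006 with a pseudocount of 4. With TMM scaling, edgeR and DESeq2 the interaction of Cry2 was -0.002, -0.19 and -0.18, and Nr1d2 in VAD Stra6-/- against VAD WT was -0.011, -0.033 and -0.008. Leaving out each library in turn also turned signs near 0, with ranges of -0.11 to 0.10 for Arntl, -0.033 to 0.091 for Per2, -0.069 to 0.077 for Per3 and -0.049 to 0.34 for Cry2 in VAD WT against VAS WT, -0.007 to 0.20 for Arntl in VAD Stra6-/- against VAS Stra6-/-, -0.16 to 0.23 for Per1 and -0.039 to 0.076 for Nr1d2 in VAD Stra6-/- against VAD WT, and -0.033 to 0.19 for Arntl, -0.20 to 0.16 for Npas2 and -0.15 to 0.24 for Cry2 in the interaction. The cause was not tested.

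Counts of clock genes called changed as follows. In VAD WT against VAS WT the count was 1 with a mean value of at least 10, 1 with edgeR, 2 with DESeq2, 1 without VAD WT replicates 2 and 4, and 0 to 2 on leaving out each library in turn. Requiring a log2 fold change beyond 1 left 2 genes in VAS Stra6-/- against VAS WT, 2 in VAD Stra6-/- against VAS Stra6-/- and 2 in VAD Stra6-/- against VAD WT. With only the compared groups in the fit, 4 were called in VAD Stra6-/- against VAD WT. Over all genes, calls in VAS Stra6-/- against VAS WT went from 5010 to 8208 with only those groups and 7524 without VAD WT replicates 2 and 4, and in VAD WT against VAS WT from 1652 to 639 and 7124. DESeq2 called 2141 genes there, 1059 of them higher, where limma called 618 higher. With a log2 fold change beyond 1 the all-gene counts were 926, 328, 4488, 5064 and 4613 in the 4 comparisons and the interaction.

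With the replicate block the counts of clock genes were 6, 0, 6, 8 and 4, as without it. In the interaction, Per1 was gained (limma adjusted p = 0.0492) and Nr1d2 lost (0.0627) under the block. The replicate numbers gave no sign of pairing the mice, although such correlations cannot exclude a shared litter or day. Of 30 same-numbered pairs, 3 correlated above 0.1 in their deviations from group means (range -0.23 to 0.14), and in 8 of 60 checks a library correlated best with its own number.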
